A study of Homo sapiens with 3 samples.

Results

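A culture treated with Mt-CFX was compared directly with a culture treated with CFX at the same dose for the same time. The cells were MDA-MB-231, a human triple-negative breast cancer line of mesenchymal appearance. The first culture received 10 µM Mt-CFX and the other 10 µM CFX, each for 72 h, and a further culture kept in 1% DMSO for 72 h served the study as control. CFX stands for ciprofloxacin, which the series title names, and Mt-CFX is a code name that the labels do not explain. Solvent is labelled only for the control, so whether both drug cultures held the same amount of DMSO is not stated. Each culture was read on a single array (n = 1), which leaves no replicate error and no test, and every difference below is a size in these 2 arrays and not a tested effect. The members of the comparison were the genes whose highest value on any of the 3 arrays reached 3.89 log2, the median of all probe sets, with 1 probe set per gene. They numbered 10132 of the 14884 genes that could be named, and 8872 of them were protein-coding. The control array was not part of the subtraction, but it entered the floor and the choice of probe set, and it is given beside the drugs for orientation. RMA summarises probes across arrays, so the control may also have shaped the deposited values of both drug arrays.

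Ciprofloxacin is a fluoroquinolone antibiotic, and its bacterial targets are the type II topoisomerases gyrase and topoisomerase IV. Mammalian cells answer shortage of amino acids, protein misfolding in the endoplasmic reticulum and mitochondrial dysfunction through a shared route in which kinases phosphorylate the initiation factor eIF2. General translation then slows, while the mRNA of the transcription factor ATF4 is translated better. ATF4 raises genes of amino acid synthesis and tRNA charging, together with feedback regulators such as TRIB3 and DDIT3.

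Most genes differed little between the drugs. Exactly the same deposited value stood on both arrays for 5519 genes (54.5%), 2154 genes (21.3%) were higher with Mt-CFX, and 2459 (24.3%) were lower. Equal here and below is a tie of deposited values and need not mean that the RNA was unchanged. The differences had a median of 0, an SD across genes of 0.20 log2, and lay within 0.1 log2 for 7376 genes (72.8%). At least 2-fold higher with Mt-CFX were 29 genes, 0.286% of those compared, and at least 2-fold lower were 13 genes, 0.128%. At the size of 1.5-fold the counts were 123 genes higher (1.21%) and 104 lower (1.03%). These 4 shares are the background against which the counts in the gene groups below can be read. The floor is a middle level of the array and not a measured detection limit, and for 6 of the genes past 2-fold 1 of the drug arrays lay under it. When values under the floor were set to it, a step added after the data were seen, 26 genes were at least 2-fold higher and 12 lower. For the 6 genes the differences are given below also as the least size that this leaves. The sorted values of both arrays lay at most 0.14 log2 apart, so a difference in total RNA between the cultures would not be visible.

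The line was checked against its markers. Of the mesenchymal-like markers that could be named, VIM stood at 9.17 log2 on each array, AXL at 10.97 with the control, 10.93 with CFX and 10.86 with Mt-CFX, and EGFR at 9.82, 9.82 and 9.68 in the same order. Another of these markers, S100A4, lay near the floor at 4.24, 3.96 and 4.30. The progesterone receptor gene PGR lay below the floor at 2.39 on each array. The oestrogen receptor gene ESR1 stood close to it at 3.81, 3.92 and 3.81. Both are among the receptors whose lack defines the triple-negative class, and the HER2 gene ERBB2 could not be named. Markers of other cell types such as LYZ, PECAM1, VWF and DCN were below the floor on all 3 arrays, while CD68, a lysosomal protein gene that macrophages share with many cultured cells, read 9.37, 9.27 and 9.13. The luminal markers GATA3 and FOXA1 read 5.52 and 4.36 on every array. Other luminal and epithelial markers also stood above the floor on every array. KRT19 read 6.12, 5.80 and 5.94, EPCAM 5.37, 5.37 and 5.11, and CLDN3 5.52, 5.34 and 5.52. CLDN4 read 5.28, 5.28 and 5.04, TFF1 4.46, 4.16 and 4.16, and ERBB3 4.24 on each array.

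**Figure D1:**
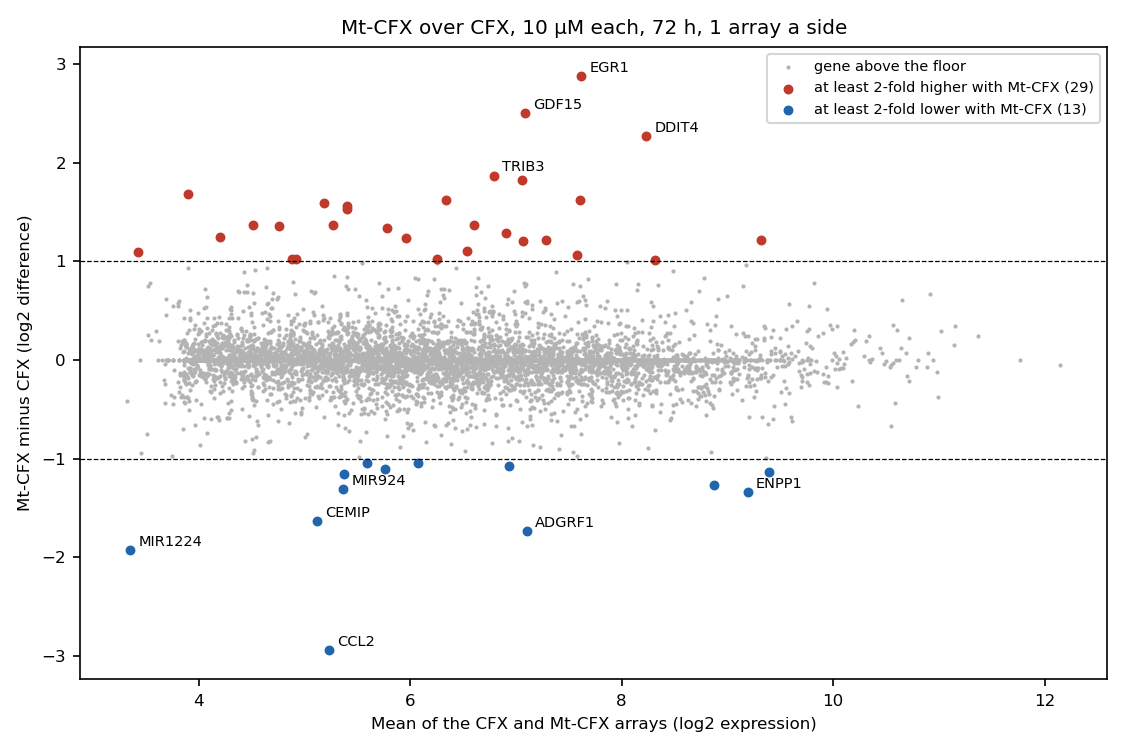
Difference between the drugs (Mt-CFX minus CFX, log2, vertical axis) against the mean level of both arrays (log2, horizontal axis), 1 point per gene above the floor, with the 2-fold sizes drawn as lines. Most of the 10132 points lie on or beside 0, and EGR1 at 2.88 and CCL2 at -2.94, or -2.81 with its low side at the floor, lie farthest from it.

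Genes of the ATF4 route were mostly higher with Mt-CFX. Of 14 pathway regulators above the floor, 8 were higher, 1 was lower and 5 were equal, with 4 past 1.5-fold higher and 0 past 1.5-fold lower, and their median difference was 0.23 log2. The median was 0 with the floor raised to the 75th percentile of all probe sets, 5.43 log2, while the mean over the 14 was 0.42. ATF4 itself stood at 8.12 log2 with the control, 8.36 with CFX and 8.95 with Mt-CFX. TRIB3, a pseudokinase that ATF4 induces and that dampens AKT signalling and ATF4, read 5.76, 5.86 and 7.73, a difference of 1.87 log2 or 3.66-fold between the drugs. For both genes the Mt-CFX array was the high one and the control lay below CFX.

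DDIT3, which encodes the transcription factor CHOP, read 3.06 with the control, 3.06 with CFX and 4.75 with Mt-CFX. Its level was below the floor on both arrays without Mt-CFX, so the measured difference of 1.69 log2 stands on a low value, and against the floor it was at least 1.81-fold higher. ATF3, a further stress-induced factor of the same family, read 4.08, 4.08 and 4.77. GDF15, a secreted stress cytokine that lowers food intake through a brainstem receptor, read 5.51, 5.83 and 8.33, which was 5.67-fold higher with Mt-CFX than with CFX.

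Amino acid synthesis genes were also mostly higher or equal. Of 11 above the floor, 7 were higher with Mt-CFX, 1 was lower and 3 were equal, and the median difference was 0.20 log2. The median was 0.60 with the floor at the 75th percentile and the mean 0.42. ASNS, which makes asparagine, read 7.64 log2 with the control, 7.81 with CFX and 8.82 with Mt-CFX, just inside the 2-fold size at 1.01. CTH, which makes cysteine from cystathionine, read 6.01, 6.68 and 7.89, and here the CFX array lay well above the control. PSAT1, an enzyme of serine synthesis, read 9.95, 10.35 and 10.96. ASS1, the argininosuccinate synthase of arginine supply, read 7.03, 6.93 and 7.83, and PHGDH, the entry enzyme of serine synthesis, stood at 7.25, 7.28 and 7.87. In the neighbouring list of folate one-carbon enzymes 3 of 7 were higher and 4 lower, with TYMS, the thymidylate synthase, at -0.64 log2.

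The cytosolic aminoacyl-tRNA synthetases, which load amino acids onto tRNAs, were higher in 12 of 19 cases, lower in 2 and equal in 5, with a median of 0.24 log2. SARS1, the seryl enzyme, read 8.22 with the control, 8.36 with CFX and 9.19 with Mt-CFX. CARS1, the cysteinyl enzyme, read 6.89, 7.10 and 7.68, and MARS1, the methionyl enzyme, 7.96, 8.27 and 8.74. For these 3 genes CFX lay between the control and Mt-CFX. WARS1, the tryptophanyl enzyme, was 1.11 log2 higher on the probe set used, at 6.05, 5.98 and 7.09, but 0.00 on its other probe set, so the value of the gene depends on which is read.

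A motif search gave the synthetases a feature that the comparison did not use. The ATF4 and C/EBP composite element was searched as TGATGNAA on both strands (TTNCATCA on the other) in windows from 250 bases before to 50 after each RefSeq start. It occurred in 3.62% of all 35116 promoters in the table, in 2.67% of the 7783 compared genes that have a promoter there, and in 7 of 15 synthetase genes (46.7%), namely AARS1, CARS1, GARS1, IARS1, MARS1, NARS1 and TARS1. Among genes at least 1.5-fold higher with Mt-CFX it occurred in 8 of 92 (8.70%), and among those at least 1.5-fold lower in 1 of 71 (1.41%). Of the pathway regulators ATF3 and JDP2 held it, 2 of 12 in all, and of the 8 amino acid synthesis genes with a promoter ASNS alone did. JDP2 was equal on both drug arrays. SARS1 and WARS1, the synthetase genes past 1.5-fold, were not among the 7 holders. A match is only a run of letters, and no match says only that the letters are not in the window. ASNS and CARS1 each have 2 promoters in the table, and 1 of the 2 holds the match. Shown are 3 promoters of genes described above, from RefSeq on GRCh38.p14, 5′ to 3′ on the gene's strand with the match in capitals: ASNS at chr7:97872359-97872658 (minus strand), where it begins 68 bases before the start, CARS1 at chr11:3057374-3057673 (minus strand), where it begins 2 bases before, and MARS1 at chr12:57487818-57488117 (plus strand), where it begins 4 bases before.
ASNS: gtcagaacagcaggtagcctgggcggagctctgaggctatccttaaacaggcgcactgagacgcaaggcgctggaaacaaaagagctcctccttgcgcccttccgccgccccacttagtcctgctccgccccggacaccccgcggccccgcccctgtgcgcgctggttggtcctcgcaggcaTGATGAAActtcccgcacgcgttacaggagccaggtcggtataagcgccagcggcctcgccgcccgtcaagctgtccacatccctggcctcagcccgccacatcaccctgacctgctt
CARS1: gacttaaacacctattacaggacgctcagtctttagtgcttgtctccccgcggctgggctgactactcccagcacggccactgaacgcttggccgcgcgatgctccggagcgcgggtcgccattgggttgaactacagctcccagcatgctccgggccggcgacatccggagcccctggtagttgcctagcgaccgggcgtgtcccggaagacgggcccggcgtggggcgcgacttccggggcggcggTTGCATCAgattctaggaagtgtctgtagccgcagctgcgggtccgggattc
MARS1: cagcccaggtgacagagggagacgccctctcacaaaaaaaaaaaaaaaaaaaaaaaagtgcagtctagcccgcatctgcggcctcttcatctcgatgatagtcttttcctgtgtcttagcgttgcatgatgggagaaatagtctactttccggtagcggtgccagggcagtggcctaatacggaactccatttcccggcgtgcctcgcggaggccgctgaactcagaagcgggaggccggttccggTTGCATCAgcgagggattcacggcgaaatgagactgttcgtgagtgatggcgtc

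A pair of inhibitors of mTORC1, the kinase complex that couples growth to amino acid supply, was far higher with Mt-CFX. DDIT4, which releases the TSC complex against mTORC1, read 6.79 log2 with the control, 7.10 with CFX and 9.37 with Mt-CFX, 4.83-fold higher than with CFX. SESN2, a leucine-binding sestrin, read 6.32, 6.15 and 7.97, 3.54-fold higher. Of the 22 regulators above the floor, these included, 14 were equal, 5 higher and 3 lower. The other higher ones were EIF4EBP1, DEPTOR and RHEB. EIF4EBP1, a translation repressor that mTORC1 inhibits, differed by 0.30 log2. DEPTOR, an inhibitor within the complex, differed by 0.28 from a CFX value under the floor. RHEB, a GTPase that activates the complex, differed by 0.04. SESN2 is also on the list of p53 targets, where 5 of 13 were higher, 3 lower and 5 equal, with a median of 0. Only 14 of the 30 genes on that list could be named. On that list PMAIP1, which encodes the BH3-only protein NOXA, was 0.62 log2 higher at 6.39, 6.62 and 7.23. PLK2 differed by -0.53 and SFN by -0.47.

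EGR1, a zinc finger transcription factor of the immediate early class, had the largest difference of any gene in the upward direction. It read 5.92 log2 with the control, 6.17 with CFX and 9.06 with Mt-CFX, which was 7.37-fold higher than with CFX. On its other probe set the values were 3.53, 3.64 and 5.17, a difference of 1.54 log2 in the same direction and smaller. Immediate early genes are transcribed within minutes of a stimulus from factors already present, while these cultures were read after 72 h. Of 27 such genes above the floor 14 were higher with Mt-CFX, 4 lower and 9 equal, with 5 past 1.5-fold higher and 1 past 1.5-fold lower.

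PTGS2, the inducible prostaglandin synthase, read 5.03 with the control, 4.39 with CFX and 5.98 with Mt-CFX. The control lay between the drugs for this gene, so part of its difference of 1.59 log2 is the lower CFX value. IER2 read 5.63, 5.63 and 6.46, JUNB, an AP-1 subunit, 5.77, 5.67 and 6.48, and MYC 7.06, 7.38 and 7.94. Other members went the opposite way: the AP-1 subunit gene JUN read 8.16, 8.04 and 7.61, and DUSP4, a phosphatase that inactivates MAP kinases in the nucleus, 7.63, 7.85 and 7.19. The list had a median of 0.05 log2.

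The promoter of EGR1 is known for repeats of the CArG box, the site of serum response factor, and they were found by a search that was added after the values had been seen. The CArG box occurred in 1.29% of all promoters, in 1.61% of the compared genes with a promoter, and in 2 of 19 immediate early genes, EGR1 and SRF. The EGR1 window at chr5:138465229-138465528 (plus strand, RefSeq, GRCh38.p14) holds 2 matches, in capitals, the first of which begins 105 bases before the start.
EGR1: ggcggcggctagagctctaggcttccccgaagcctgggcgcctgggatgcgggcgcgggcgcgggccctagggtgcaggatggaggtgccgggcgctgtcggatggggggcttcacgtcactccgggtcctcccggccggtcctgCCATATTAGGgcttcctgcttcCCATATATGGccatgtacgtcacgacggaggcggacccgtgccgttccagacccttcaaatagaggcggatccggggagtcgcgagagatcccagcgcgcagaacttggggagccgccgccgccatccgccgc

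Stress lists beside the ATF4 route gave smaller or mixed differences. TXNRD1, the cytosolic thioredoxin reductase and a target of the antioxidant factor NRF2, read 7.42 log2 with the control, 7.56 with CFX and 8.54 with Mt-CFX and lay just outside the 2-fold size at 0.99. SQSTM1, an autophagy receptor that also frees NRF2 from KEAP1, read 6.22, 6.23 and 7.06. Of the 17 NRF2 and antioxidant genes above the floor 6 were higher, 2 lower and 9 equal. Only 18 of the 36 listed could be named. The antioxidant element, searched as TGACNNNGC on both strands, was found in 3 of 13 promoters of that list (23.1%), those of KEAP1, TXNRD1 and PGD, against 18.8% of the compared genes.

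Autophagy and lysosome genes were higher in 12 of 26 cases, lower in 6 and equal in 8. MAP1LC3B, whose lipid-bound protein coats the autophagosome, read 4.08, 4.08 and 5.44, and its level without Mt-CFX was only just above the floor. GABARAPL1, a relative of the same protein family, read 5.07, 5.17 and 5.64, and RB1CC1, a subunit of the kinase complex that starts autophagosome formation, 6.76, 6.82 and 7.40. The list as a whole had a median of 0, and its lowest members were MITF, a transcription factor of lysosome genes, at -0.40 and the protease gene CTSD at -0.12.

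Genes of endoplasmic reticulum stress lay on both sides. ERN1, which encodes the sensor IRE1, read 5.17 with the control, 5.05 with CFX and 5.77 with Mt-CFX, and XBP1, whose mRNA IRE1 splices, 7.16, 7.23 and 7.99. The lectin chaperone gene CALR read 11.07, 10.88 and 10.22, SDF2L1 5.23, 5.23 and 4.71, and MANF, a stress-induced factor of the same compartment, 6.29, 6.23 and 5.73. The sensor gene EIF2AK3 and CRELD2 were equal, and the chaperone genes CANX at -0.01 and HYOU1 at 0.04 lay close to 0. Of the 14 members 5 were higher, 5 lower and 4 equal, with a median of 0. The list held 26 genes, of which only these 14 could be named. Cytosolic heat shock genes were lower in 8 of 11 cases and higher in 0, with a median of -0.19 log2, and mitochondrial chaperones and proteases were higher in 2 of 13 and lower in 6, with AFG3L2 at -0.26.

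**Figure D2:**
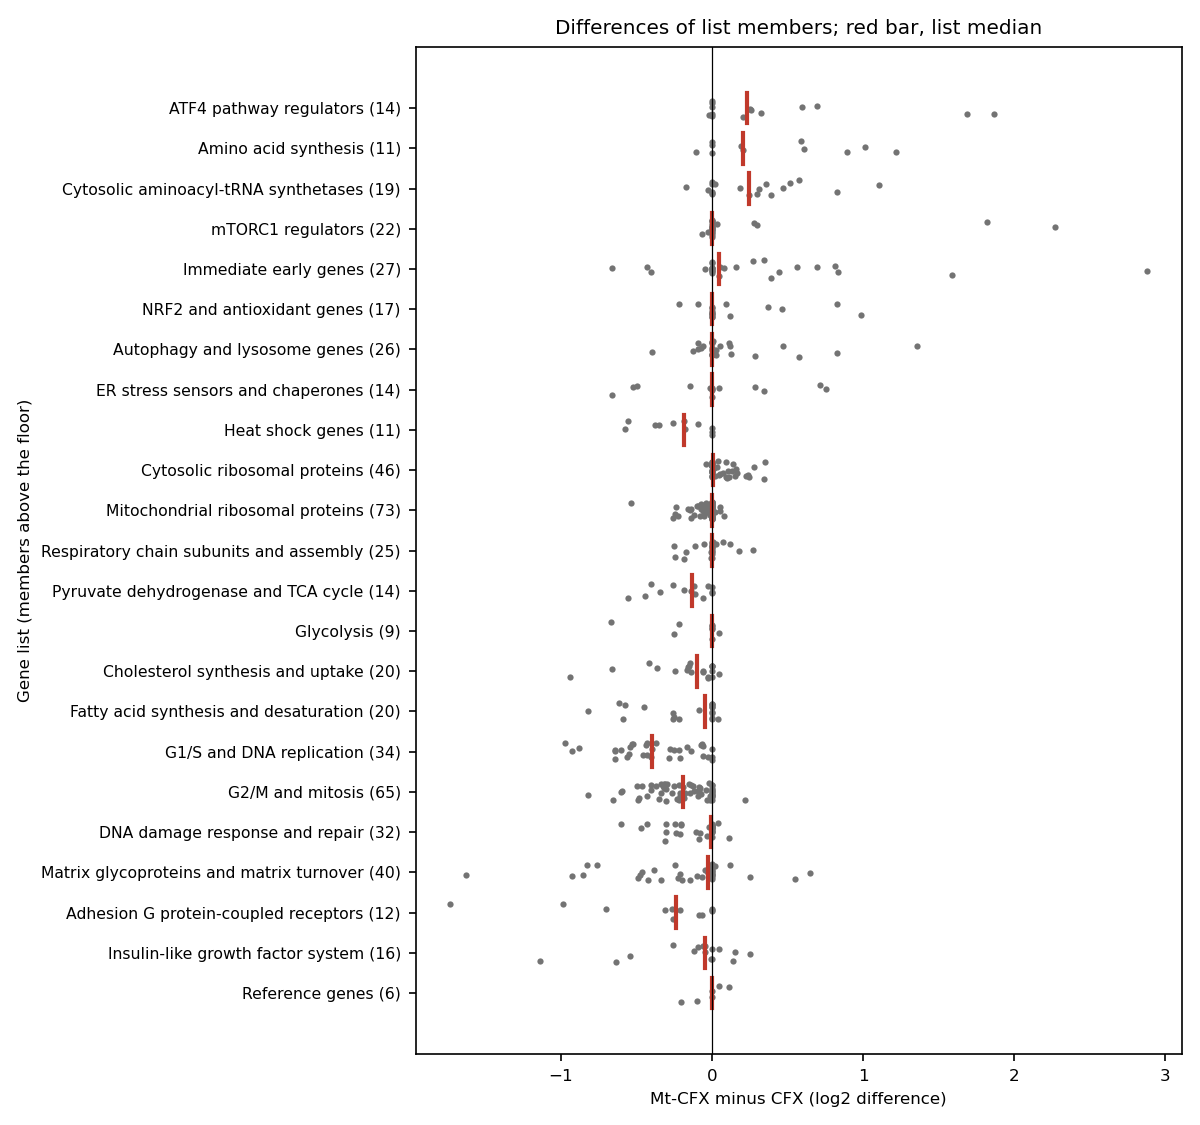
Difference Mt-CFX minus CFX (log2, horizontal axis) of the members of gene lists (rows), 1 point per gene above the floor and a bar at each list's median. The amino acid synthesis and synthetase points spread to the right of 0 with medians of 0.20 and 0.24, and the DNA replication points lie to the left with a median of -0.40.

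Genes of DNA replication were lower with Mt-CFX almost throughout. Of 34 genes of the G1/S transition and replication above the floor, 31 were lower, 3 equal and 0 higher, with a median of -0.40 log2, while over all genes the median was 0 and 24.3% were lower. Past 1.5-fold lower were 7 of the 34. They were UHRF1, which recruits maintenance DNA methylation to new DNA, FEN1, the flap nuclease of lagging strand synthesis, GINS2, a subunit of the replicative helicase, TYMS, cyclin E2 (CCNE2), E2F2 and the uracil glycosylase UNG. These are sizes below 2-fold spread over many genes, not a few large differences.

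UHRF1 read 8.28 log2 with the control, 8.07 with CFX and 7.09 with Mt-CFX. FEN1 read 7.20, 6.98 and 6.06, and GINS2 6.36, 6.35 and 5.47. In these genes the Mt-CFX array was the low one and CFX stood at or slightly under the control. For others CFX was the highest of the 3 arrays: the sliding clamp gene PCNA read 8.44, 8.75 and 8.22, MCM3, a helicase subunit, 8.39, 8.51 and 8.06, and E2F2, a transcription factor of S phase entry, 5.04, 5.18 and 4.54. The difference between the drugs was therefore larger than that between Mt-CFX and the control for PCNA, MCM3 and E2F2.

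The E2F element was searched as TTTNGCGC on both strands (GCGCNAAA on the other). It occurred in 1.79% of all promoters, in 3.34% of the compared genes, in 14 of 29 replication genes (48.3%) and in 6 of 57 mitotic genes (10.5%). The 14 were MCM2, MCM3, MCM6, MCM7, MCM8, CDC6, CDT1, GINS1, E2F1, E2F2, UHRF1, DNMT1, DTL and TIPIN. Their differences ranged from -0.97 log2 in UHRF1 to 0 in TIPIN. Among genes at least 1.5-fold lower with Mt-CFX the element occurred in 4 of 71 (5.63%), namely ACACA, CDC25A, E2F2 and UHRF1. Among those at least 1.5-fold higher it occurred in 1 of 92 (1.09%). The windows of E2F2 at chr1:23531184-23531483 (minus strand) and MCM3 at chr6:52284693-52284992 (minus strand) are shown with the matches in capitals, 2 overlapping ones in E2F2 and 1 in MCM3, which begins 4 bases before the start (RefSeq, GRCh38.p14).
E2F2: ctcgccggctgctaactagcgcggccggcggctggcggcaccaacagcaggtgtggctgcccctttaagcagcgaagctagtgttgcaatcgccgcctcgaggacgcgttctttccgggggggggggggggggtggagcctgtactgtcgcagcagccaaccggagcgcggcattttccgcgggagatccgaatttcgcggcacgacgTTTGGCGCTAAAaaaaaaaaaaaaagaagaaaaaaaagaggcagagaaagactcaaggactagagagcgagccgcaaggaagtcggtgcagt
MCM3: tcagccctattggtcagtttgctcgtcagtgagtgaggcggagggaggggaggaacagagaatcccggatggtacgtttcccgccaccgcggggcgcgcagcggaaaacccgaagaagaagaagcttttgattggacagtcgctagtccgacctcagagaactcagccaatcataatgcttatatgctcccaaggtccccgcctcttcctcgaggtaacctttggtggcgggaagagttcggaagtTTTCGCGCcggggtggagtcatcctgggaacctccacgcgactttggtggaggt

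Mitotic genes followed with smaller sizes. Of 65 G2/M genes 51 were lower, 13 equal and 1 higher, with a median of -0.19 log2 and 4 past 1.5-fold lower. RACGAP1, a part of the central spindle complex, read 4.85 with the control, 5.09 with CFX and 4.26 with Mt-CFX, CDC25A, a phosphatase that activates cyclin-dependent kinases, 6.49, 6.55 and 5.90, and the proliferation marker MKI67 9.73, 9.73 and 9.13. PLK4, the kinase of centriole duplication, read 6.37, 6.71 and 6.11. The single higher gene was SKA1, a kinetochore protein gene, at 0.22 log2. In a mixed list of cell cycle inhibitors, cyclins and their kinases 5 of 13 were lower, namely the inhibitor genes RBL1 at -0.46 and CDKN3 at -0.11 and CDK2, CCND1 and CDK6 at -0.16, -0.12 and -0.0028, and 1 was higher, the cyclin G2 gene CCNG2 at 0.31. In a bulk culture fewer cells in S phase or mitosis and less RNA per such cell cannot be told apart.

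The topoisomerase genes were lower in 4 of 5 cases, and TOP3B was equal. Of the 5, only TOP2A and TOP2B encode type II enzymes, the class of the bacterial fluoroquinolone targets. TOP2A, the isoform of proliferating cells, read 10.67 with the control, 10.80 with CFX and 10.37 with Mt-CFX. TOP3A differed by -0.28, TOP2B by -0.11 and TOP1 by -0.10 log2. TOP2A is also on the list of mitotic genes, whose median was -0.19 log2 against its own difference of -0.43. Whether its difference goes with that of the cell cycle genes was not tested. Of 32 DNA damage and repair genes 16 were lower, 2 higher and 14 equal, led by BRIP1, a helicase partner of BRCA1, at 8.75, 8.76 and 8.15.

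The mitochondrial lists differed from each other. Enzymes of pyruvate dehydrogenase and the citrate cycle were lower in 11 of 14 cases, higher in 0 and equal in 3, with a median of -0.13 log2. DLD, the dihydrolipoamide dehydrogenase that these complexes share, read 7.70 with the control, 7.94 with CFX and 7.39 with Mt-CFX, and OGDH, the first subunit of the oxoglutarate dehydrogenase complex, 8.51, 8.60 and 8.15. Nuclear genes of respiratory complexes III and IV and their assembly were higher in 6 of 25 cases, lower in 8 and equal in 11, with a median of 0. Of 42 listed respiratory chain genes only these 25 could be named, so the other complexes were not read here. Mitochondrial ribosomal protein genes had 28 of 73 lower and 4 higher and also a median of 0, with MRPS28 at -0.54. Of 14 genes that maintain or express mitochondrial DNA 4 were higher and 5 lower, the nuclease and helicase gene DNA2 lowest at -0.66. None of the mitochondrial lists had a member past 2-fold.

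Cytosolic ribosomal protein genes leaned the other way by a small amount, with 24 of 46 higher, 1 lower and 21 equal and a median of 0.01 log2. RPS16 read 7.16, 7.10 and 7.45 and RPS19 9.29, 9.18 and 9.52, so that CFX lay below the control for both. Ribosome biogenesis factors were lower in 15 of 27 cases and higher in 1, with URB2 at -0.52 and LYAR at -0.50. Among initiation and elongation factors 9 were higher and 9 lower, with EIF1B, a paralogue of the start codon factor EIF1, at 5.69, 5.94 and 6.65.

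Cholesterol genes were mostly lower with Mt-CFX, and fatty acid genes were lower or equal. Of 20 cholesterol synthesis and uptake genes 14 were lower, 1 higher and 5 equal, with a median of -0.10 log2, and of 20 fatty acid genes 10 were lower, 1 higher and 9 equal, with a median of -0.04. Past 1.5-fold lower were 2 and 3 of them. FASN, the fatty acid synthase, read 7.72 with the control, 7.44 with CFX and 6.62 with Mt-CFX, and ACACA, which makes its malonyl substrate, 7.74, 7.69 and 7.08. HSD17B7, a reductase of sterol synthesis, read 4.79, 4.98 and 4.04, and the stearoyl desaturase gene SCD 8.80, 8.74 and 8.29. LPCAT1, which reacylates lysophospholipids, read 8.43 with the control and 7.07 with Mt-CFX, which was -0.93 log2 against CFX, its relatives LPCAT3 and LPCAT2 differed by -0.47 and -0.34, and LPCAT4 was equal. The phospholipid and triglyceride list as a whole had 7 of 20 lower, 3 higher and 10 equal, with a median of 0. The sterol element, searched as TCACNCCAC, was found in 1 of 18 cholesterol gene promoters, that of SREBF2, against 1.43% of the compared genes. Of the 9 glycolysis genes above the floor the lowest was LDHA, the lactate dehydrogenase, at 6.64, 6.57 and 5.90, and GFPT1, the entry enzyme of hexosamine synthesis from a glycolytic intermediate, was 2.32-fold higher at 8.57, 8.71 and 9.92.

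The largest downward difference was in a chemokine. CCL2, which attracts monocytes, read 7.11 log2 with the control, 6.70 with CFX and 3.76 with Mt-CFX, where it was below the floor. The measured difference was -2.94 log2, and with the low side held at the floor CCL2 was at least 7.03-fold lower than with CFX. Of 21 chemokines, cytokines and receptors above the floor 8 were lower, 4 higher and 9 equal. CSF1, the macrophage growth factor, read 6.51, 6.38 and 5.67, and the interleukin 7 receptor gene IL7R 5.89, 5.69 and 5.15. On the other side LIF, a cytokine of the interleukin 6 family, read 7.20, 7.15 and 7.57. Interferon-responsive genes were equal in 18 of 27 cases, and SLFN5, a schlafen family gene, was 3.09-fold higher at 6.46, 6.79 and 8.42, while the other 2 schlafen genes above the floor were equal.

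Several secreted matrix proteins and their regulators were lower, while the list as a whole shifted little. Of 40 matrix genes 21 were lower, 5 higher and 14 equal, with a median of -0.03 log2, 5 past 1.5-fold lower and 1 past 1.5-fold higher. CEMIP, a hyaluronan-degrading protein gene, read 6.23 with the control, 5.94 with CFX and 4.31 with Mt-CFX, 32.4% of the CFX level. HAS2, which makes hyaluronan, read 6.68, 6.68 and 5.92, so genes for both making and degrading that polymer were lower. THBS1, the thrombospondin gene, read 9.52, 9.31 and 8.38, and the fibronectin gene FN1 8.78, 8.52 and 8.05. Of the 5 higher genes tenascin C (TNC) at 7.66, 7.31 and 7.96 and the protease inhibitor gene TIMP4 at 6.78, 6.50 and 7.05 were below the control with CFX, and ADAM17, EFEMP2 and MMP14 were higher by 0.25, 0.12 and 0.02. TIMP3, a related inhibitor, differed by -0.85 on the probe set used and by -0.27 on its other one, which was under the floor on every array.

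Some ligands, binding proteins and receptors of growth pathways were low on the Mt-CFX array. IGFBP4, which binds insulin-like growth factors, read 10.11, 9.96 and 8.82, and in that list 10 of 16 were lower and 4 higher, with a median of -0.05 log2. FST, the activin antagonist follistatin, read 6.46, 6.31 and 5.21, and BMP4 7.64, 7.64 and 7.03. LGR4, a receptor for R-spondins that strengthens WNT signalling, read 7.58, 7.47 and 6.40, and of 25 genes of that pathway 10 were lower, 3 higher and 12 equal, with a median of 0. The TGF-beta, BMP and activin list, which also holds GDF15, had 7 of 26 lower, 3 higher and 16 equal, with a median of 0. In the EGF and FGF list 7 of 19 were lower, 5 higher and 7 equal, with a median of 0. ERRFI1, a feedback inhibitor of the EGF receptor, was higher at 10.29, 10.58 and 11.25, and the ligand gene NRG1 lower at 7.37, 7.37 and 6.74.

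Membrane proteins gave several of the lowest values. ADGRF1, an adhesion G protein-coupled receptor gene, read 8.05, 7.97 and 6.24, which was 30.1% of the CFX level, and its relative ADGRF5 10.04, 9.86 and 8.87. Of 12 adhesion receptors above the floor, ADGRF1 and ADGRF5 included, 9 were lower, 3 equal and 0 higher. Their median was -0.24 log2, which was -0.07 when the genes below the floor were taken in. Over all genes 24.3% were lower, and the list was chosen with earlier results of these data known. ENPP1, an ectoenzyme that splits extracellular ATP and the messenger cGAMP, read 9.90, 9.86 and 8.52, or 39.6% of the CFX level. CAVIN2, which shapes caveolae, read 9.50, 9.51 and 8.24, and among the 9 caveolae genes 5 were equal. The orphan receptor kinase gene ROR1 read 7.68, 7.67 and 6.79.

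Transcription and chromatin regulators had members at both ends. KDM7A, a histone lysine demethylase, read 4.68 with the control, 5.11 with CFX and 6.45 with Mt-CFX, and the related demethylase gene KDM6B 5.55, 5.58 and 6.13. Of 72 histone and DNA modifying enzymes 16 were higher, 26 lower and 30 equal, and KDM7A and UHRF1 were the members past 1.5-fold. LMO3, a LIM-only adaptor gene, read 6.11, 6.11 and 5.07 and the related LMO4 5.88, 5.83 and 6.49, so members of this small family differed in opposite directions. SERTAD4 read 5.94, 5.95 and 4.80, and the repressor gene MXD1, a partner of MAX that competes with MYC, was 0.98 log2 higher.

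Further genes at least 2-fold higher belonged to none of the groups above. STK32A, a serine/threonine kinase gene, read 4.76, 4.64 and 6.17, and ANKFN1 4.31, 4.62 and 6.18. EID3, whose product belongs to a family of SMC5/6 complex subunits, read 5.98, 5.92 and 7.28. RBCK1, a ubiquitin ligase subunit of the linear chain complex, read 7.07, 7.04 and 8.11, and GTPBP2, a GTPase linked to rescue of stalled ribosomes, 5.71, 5.74 and 6.76. FBXO32, the muscle atrophy ubiquitin ligase atrogin-1, read 4.75, 4.37 and 5.39, and UPP1, the uridine phosphorylase, 4.33, 4.41 and 5.43. SEL1L3 was 1.29 log2 higher, TMEM154 1.24 log2 higher and the antisense RNA gene NHSL1-AS1 1.36 log2 higher, the last from values below the floor on the other 2 arrays and at least 2.47-fold against the floor. Among the genes at least 2-fold lower KLHL4, a kelch family gene, read 6.60, 6.59 and 5.55.

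**Figure D3:**
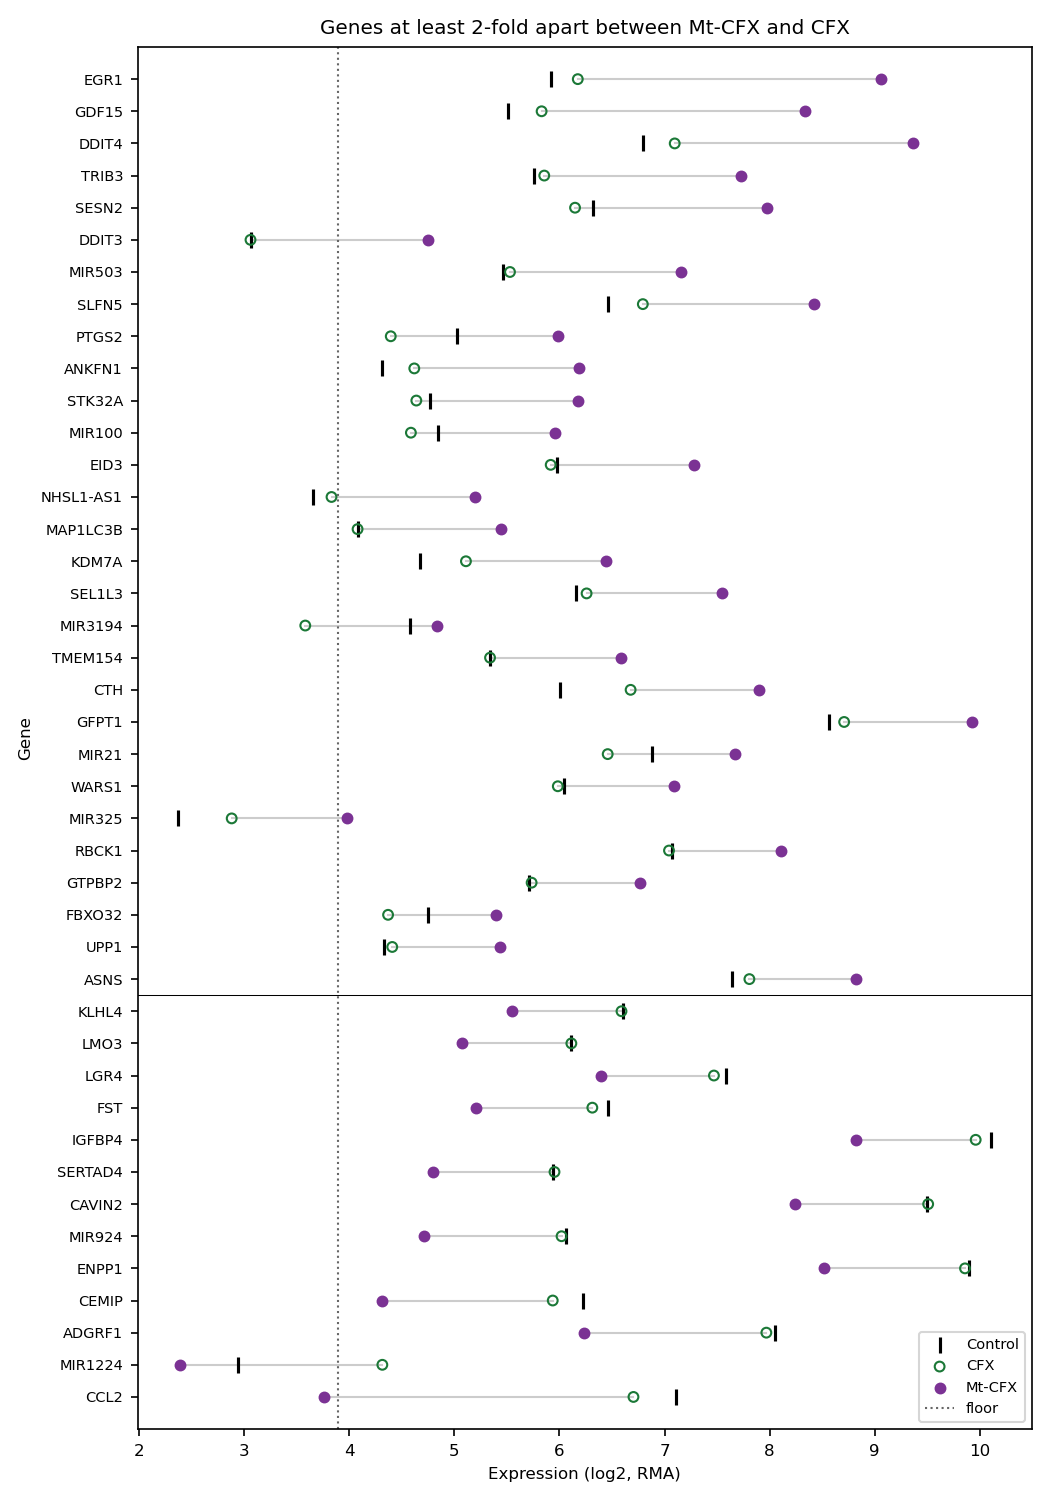
Values (log2, horizontal axis) of the 42 genes that differed at least 2-fold between the drugs, 1 row per gene, with a bar for the control, an open circle for CFX and a filled one for Mt-CFX. For most genes the control and CFX points lie together and the Mt-CFX point stands apart.

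The control array lay nearer to CFX than to Mt-CFX for 28 of the 29 higher genes and for 12 of the 13 lower ones. Mt-CFX was itself at least 2-fold away from the control in the same direction for 25 and 12 of them. Over all genes Mt-CFX was at least 2-fold above the control for 0.365% and below it for 0.257%, and CFX for 0.0592% and 0.00987%. The control lay between the drugs for 10 of the higher and 3 of the lower genes. MIR3194 and MIR1224 were the exceptions in which CFX was itself at least 2-fold from the control. Since CFX enters both differences, these counts describe where the 3 arrays stood and lend no independent weight. Just inside the 2-fold size lay ASNS at 1.01 and UPP1 at 1.02 upward and KLHL4 at -1.04 and LMO3 at -1.05 downward, and just outside TXNRD1 at 0.99, UNC5B at 0.98, ADGRF5 at -0.99 and SPDEF at -0.98.

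Some of the genes with large differences are neighbours in the reference gene order of GRCh38.p14. TRIB3 and RBCK1, at 1.87 and 1.06 log2, stand next to each other with 0 genes between. IGFBP4 and the tensin gene TNS4, at -1.14 and -0.77, do so too. TXNRD1 and EID3, at 0.99 and 1.37, have 2 annotated genes between their starts, and TM4SF18 and TM4SF1, at -0.90 and -0.62, have 1. Among genes past 1.5-fold there were 8 such close pairs with at most 3 genes between, and both members had the same direction in each. How many such pairs other genes would give was not counted, so these pairs are a description only. Overlap of neighbouring transcripts was not tested.

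Of 425 microRNA genes above the floor 5 (1.18%) were at least 2-fold higher with Mt-CFX and 2 (0.471%) at least 2-fold lower, and at 1.5-fold 14 (3.29%) were higher and 8 (1.88%) lower. MicroRNAs are short RNAs that pair with target mRNAs mainly through their seed, bases 2 to 8, and are cut from hairpins in longer transcripts. The SD of their differences was 0.29 log2, against 0.19 for protein-coding genes. Whether a probe set read the hairpin, the mature form or the longer transcript was not tested. The mature sequences of those that are described next are given from RefSeq on GRCh38.p14, 5′ to 3′ with the seed in capitals, so that shared seeds and neighbours can be seen.
hsa-miR-503-5p: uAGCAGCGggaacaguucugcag
hsa-miR-424-5p: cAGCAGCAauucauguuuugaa
hsa-miR-100-5p: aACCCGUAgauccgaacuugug
hsa-miR-125b-5p: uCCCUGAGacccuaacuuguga
hsa-let-7a-5p: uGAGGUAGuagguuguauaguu
hsa-miR-21-5p: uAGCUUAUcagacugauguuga
hsa-miR-924: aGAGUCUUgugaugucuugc
hsa-miR-1224-5p: gUGAGGACucgggaggugg
hsa-miR-3189-3p: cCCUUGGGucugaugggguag

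MIR503 and MIR424 lie together on chromosome X with 215 bases between their hairpins, and their 5p forms share 6 of 7 seed letters. MIR503 read 5.46 log2 with the control, 5.53 with CFX and 7.16 with Mt-CFX, and MIR424 5.82, 5.82 and 6.64. Thus both were highest with Mt-CFX, by 1.63 and 0.82 log2 against CFX. The members of the same cluster farther away, MIR542 and MIR450B, were below the floor at 1.99 and 1.18 on every array. Genes elsewhere that carry the same seed as MIR424 differed by little, MIR15A by 0.09 and MIR16-2 by 0.10.

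MIR100, MIRLET7A2 and MIR125B1 lie in one host transcript on chromosome 11. MIR100 read 4.84, 4.59 and 5.95, MIR125B1 4.24, 3.99 and 4.87, and MIRLET7A2 5.71, 5.95 and 6.29. All 3 were highest with Mt-CFX, and their host gene MIR100HG read 5.07 on every array. The relatives MIR99A and MIR99B, with the seed of MIR100, differed by 0.20 and 0. MIR21, whose transcript begins inside VMP1, read 6.88, 6.46 and 7.67, and VMP1 differed by 0.00. Equal values stood on both drug arrays for 54.5% of all genes, so these ties do not show that the host RNAs were unchanged.

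Lower with Mt-CFX were MIR924 at 6.06, 6.02 and 4.71, whose host gene MIR924HG differed by -0.22, and MIR1224. MIR1224 read 2.94, 4.31 and 2.39, so the CFX array alone was above the floor, and against the floor it was at least 1.34-fold lower with Mt-CFX. Its other probe set, at -1.53, was under the floor on every array. MIR3194 read 4.58, 3.58 and 4.83, with CFX under the floor, so the measured 1.25 log2 becomes at least 1.92-fold. MIR325 read 2.37, 2.88 and 3.98, was above the floor with Mt-CFX alone, and was then at least 1.06-fold higher. MIR3189, which lies within GDF15, read 3.00, 3.79 and 4.31, with the control and CFX under the floor. Its measured difference was 0.53 against the 2.50 of its host. The microRNA and its host thus differed by unequal amounts.

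**Figure D4:**
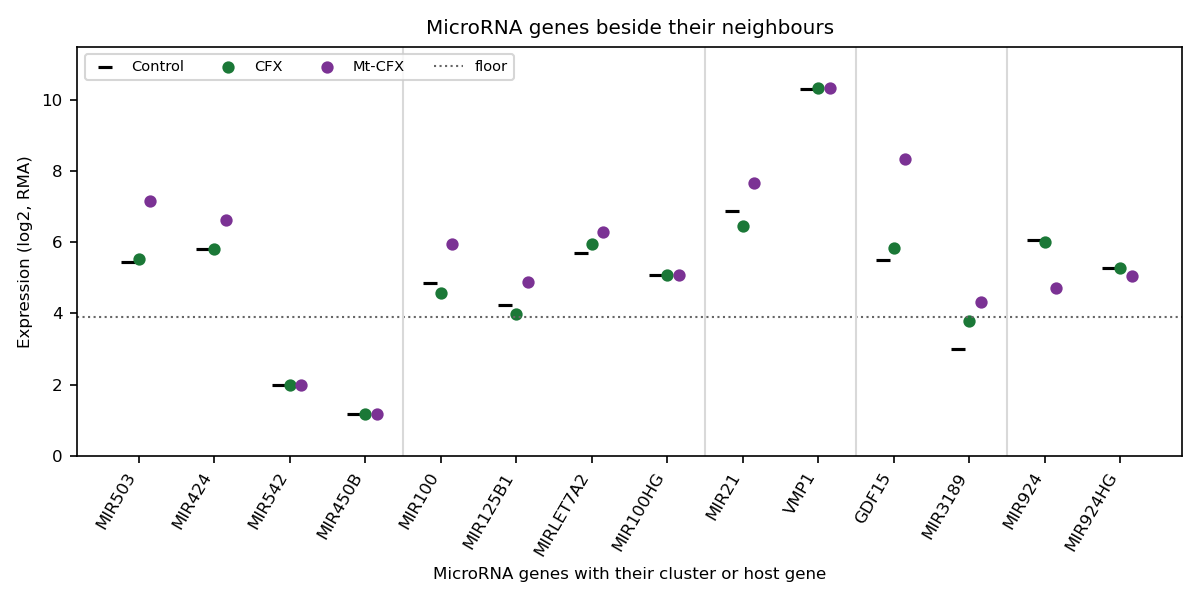
Values (log2, vertical axis) of microRNA genes and of their cluster members or host genes (horizontal axis, 1 column per gene), with a dash for the control and a point each for CFX and Mt-CFX. The dotted line is the floor at 3.89 log2. MIR503, MIR424, MIR100 and MIR125B1 are highest with Mt-CFX, and the host MIR100HG has the same deposited value of 5.07 on every array.

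Of 564 longer non-coding RNAs 8 were past 1.5-fold (1.42%) and 62.4% were equal, against 2.15% and 54.7% of protein-coding genes. Genes of any type with a mean between 4 and 5 log2 had 1.40% and 70.4%. CRNDE, which is abundant in several tumours, read 6.82 with the control, 7.16 with CFX and 7.93 with Mt-CFX. The host RNA MIR22HG read 4.69, 4.69 and 5.09, and LINC00261 was lower at 4.98, 4.98 and 4.07. The reference genes on which levels are often scaled stayed close, with GAPDH and TBP at 0, B2M at 0.11 and PPIA at -0.20.

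Probe sets of the same gene were compared, but they read the same RNA and say nothing about differences between repeat cultures. For 398 genes with a second probe set above the floor the median gap between the probe sets' differences was 0.03 log2. Of the gaps 95% were at most 0.39. Many pairs were at 0 on both probe sets, and some, such as HSPA1A and TCF19, had identical values on both, which lowers the median gap. Of 13 such genes whose used probe set was past 1.5-fold the other one had the same direction in 9, was equal in 3 and went the opposite way in 1. In 2, EGR1 and MIR4266, it also passed 1.5-fold the same way. The 3 genes with an equal second probe set were WARS1, TRIB2 and MIR1587. A near-identical copy also affects naming, since PGAM4 at -0.82 closely resembles PGAM1.

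**Figure D5:**
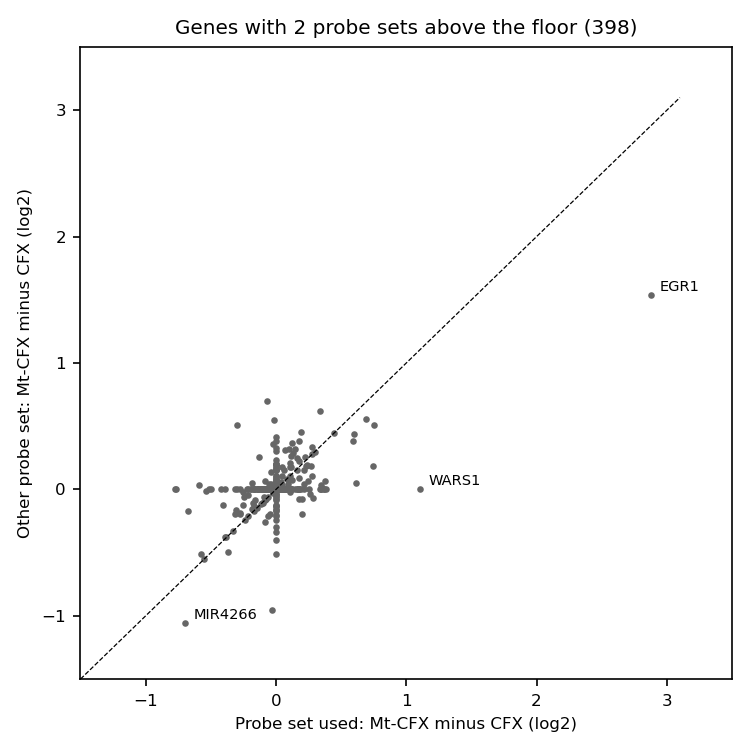
Difference Mt-CFX minus CFX (log2) on the probe set used for a gene (horizontal axis) against that on its other probe set (vertical axis), 1 point per gene, with the line of equality. EGR1 lies far from the rest at 2.88 and 1.54, and WARS1 lies on the horizontal axis at 1.11 and 0.00.

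Larger differences were not spread evenly over levels. Of genes with a mean of 8 log2 or more on both arrays 25.1% were equal and 3.99% past 1.5-fold, of those between 4 and 5 log2 70.4% were equal and 1.40% past 1.5-fold, and of those under 4 log2 3.39% were past 1.5-fold. Above 4 log2 the share of equal values shrank toward high levels. Probe sets without a gene name, which entered no gene count, were at least 2-fold higher with Mt-CFX in 0.993% of cases and at least 2-fold lower in 1.64%.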

How the data were processed

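Total RNA of 3 MDA-MB-231 cultures was hybridised to whole-transcript arrays, 1 per group. The values analysed were the deposited log2 expression values per probe set. Per the submitters' processing notes, the authors used Affymetrix Expression Console and RMA. Versions and build are not given in the sources used here. RMA gives all arrays one distribution and summarises probes across arrays, and exact ties between arrays are frequent. Of 53617 probe sets, 16098 carried 1 gene symbol in the platform annotation and 0 several, and all of these matched the reference table by gene ID. The other 37519 were unnamed here. For the 779 genes with several probe sets the probe set that was brightest on average stood for the gene. Genes whose highest array was under 3.89 log2 were left out.

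Differences of log2 values were taken, Mt-CFX minus CFX, and counted at 2-fold and 1.5-fold. With 1 array a side there was no test and no p-value. Equal means a gap of at most 1e-09. The comparison and the 61 gene lists, with 1876 listed and 1073 compared genes, were chosen with earlier results of these data known. The counts and median of a list cover only its compared members. For 4 lists no member was named, so these were not analysed here (amino acid transporters, mitochondrial synthetases, collagens, and integrins and laminins). Named genes were the 30 highest and 30 lowest, up to 10 members of a list by size, genes beside the 2-fold size, other probe sets of a gene, markers and reference genes. Others named in the text were chosen after their values were seen. A gene was counted as holding a motif if any of its promoters in the table did. Counting was tested on simulated data. Alternatives were other floors, averaged probe sets, a lowess re-centring with a span of 0.3, protein-coding genes only, list means and, added later, values under the floor set to it. Python 3.11.15, numpy 2.4.6, pandas 2.3.3, statsmodels 0.14.6 and matplotlib 3.10.9 were used. The number of arrays limits the precision.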

Additional observations from a re-analysis of the deposited data

Results flagged for a closer look

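Probe sets without a gene name took no part in the comparison of genes, and some of them stood apart on the Mt-CFX array. Of 16824 unnamed probe sets above the floor, 50 were at least 2-fold higher with Mt-CFX than on both other arrays, and 117 were at least 2-fold lower than on both. The same counts among the 10132 named genes above the floor, a smaller total, were 25 and 12. Between the drugs alone, 167 unnamed probe sets (0.993%) were at least 2-fold higher with Mt-CFX and 276 (1.64%) at least 2-fold lower. Their differences had an SD of 0.35 log2, against 0.20 for named genes, and 42.8% had the same value on both arrays. What these probe sets read was not tested.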

How the results depend on the processing

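No paired analysis was possible because each group was 1 array, and for the same reason no replicate could be left out. Among all genes, the counts at least 2-fold higher ranged from 23 to 35 and those at least 2-fold lower from 11 to 17 over the alternatives, the extremes being 35 and 17 with no floor and 23 and 11 with protein-coding genes only. At 1.5-fold they ranged from 93 to 156 and from 79 to 123. All 32 of these counts stayed within 1.5 times the value reported. The 30 highest and 30 lowest genes were each run under up to 8 alternatives. Of these values 442 stayed within 0.1 log2 of the reported one and 12 did not. Other floors and protein-coding genes only can drop a gene but cannot change its difference, so the values under them were fixed in advance. When probe sets of a gene were averaged EGR1 was 2.21, WARS1 0.55, TIMP3 -0.56 and MIR1224 -1.73. Values under the floor set to it, an alternative chosen after seeing the data, gave the other 8, with CCL2 at -2.81, DDIT3 at 0.86, MIR3194 at 0.94, MIR1224 at -0.42, ZNF836 at -0.55, WFDC10B at -0.35, SPN at -0.04 and MIR325 at 0.09. Of the 60, 12 fell out with a floor at 5.43 log2, the 75th percentile. The lowess curve moved no gene by more than 0.014 log2. None of the 60 changed direction, which among these alternatives only averaged probe sets or the re-centring could have brought about. Over 10057 genes, averaged probe sets turned the direction of 14, of which 0 were past 1.5-fold, with TMEM123 going from -0.07 to 0.31 and MIR1321 from -0.30 to 0.11. Of the values of list medians over lists and alternatives 59 moved by more than 0.1 log2 and 511 did not. Of those that moved, 25 did over members with unequal values, 23 with the mean, 9 with the floor at the 75th percentile and 2 with no floor. With that raised floor the ATF4 regulators had a median of 0, the amino acid synthesis list 0.60, the fatty acid list -0.22, the matrix list -0.21 and the WNT list -0.18.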
